A study of Mus musculus with 13 samples.

Results

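Genes that mark fibroblasts were followed in mouse hearts: Pdgfra, Tcf21, Dcn, Lum, Gsn, Dpt, Pcolce, Mfap5, Pi16 and Gas1. These 10, of 24061 gene symbols counted, were chosen from known fibroblast genes other than collagens with earlier results of the same hearts in view. The hearts came from 13 male C57BL/6N mice aged 13 weeks and kept on chow. Of these, 5 were E3A/E3A, 4 were WT/E3A and 4 were WT/WT, where E3A is an allele of the muscle carnitine palmitoyltransferase CPT1B that is less sensitive to malonyl-CoA. The labels give the allele as the animals' genotype and name no tissue-specific driver. Bulk poly(A) RNA was read from 1 library per heart. Nothing in the labels says whether hearts shared a litter or a preparation day, so p-values measure the spread between these hearts.

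Cardiac fibroblasts lie between the muscle cells and make and turn over the interstitial matrix. They carry the PDGF-alpha receptor on the surface and the transcription factor TCF21 in the nucleus, and they secrete collagens together with small proteoglycans and other proteins that shape collagen fibrils. In bulk RNA, fewer fibroblasts and less RNA per fibroblast cannot be told apart.

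Between 20.1 M and 52.6 M reads per library were assigned to genes. The submitters noted 4 of the 13 libraries as potential outliers: replicates 1 and 2 of E3A/E3A, replicate 1 of WT/E3A and replicate 1 of WT/WT. The basis of that note is not given in the sources used here. These 4 libraries stood apart: the biological coefficient of variation was 28.9% with all 13 libraries and 7.85% with the other 9, and the summed level of 8 cardiomyocyte markers was 126765 to 177670 CPM in the 4 and 81817 to 90899 CPM in the 9. The genotype tests of the fibroblast genes are therefore given with and without them. Marker sums compared between genotypes, and most genotype values of related gene families, are given for the other 9 only. The titles also carry a prefix whose meaning is not given. C2 holds only outlier-noted hearts, C6 holds only WT/WT hearts, and C3 is the only prefix that has all 3 genotypes among the other 9.

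All 10 genes were read in every heart, with the fewest reads for Tcf21 (151 to 387 per heart) and the most for Gsn (26339 to 132856 per heart), and all 10 passed the filter on low counts in both fits. Levels are given in the usual CPM unit (counts relative to library size), with TMM scaling over the 13 libraries. Per kilobase of merged exons, the level over the 9 hearts without the outlier note was highest for Gsn, which encodes the actin-severing protein gelsolin, at 416 ± 23.4 CPM per kb (SD, n = 9). Decorin (Dcn), a small leucine-rich proteoglycan that binds collagen fibrils, followed at 72.1 ± 4.52 CPM per kb (SD, n = 9). Dermatopontin (Dpt), a small matrix protein that binds decorin, stood at 51.5 ± 4.72 CPM per kb, and lumican (Lum), a proteoglycan of the same family as decorin, at 19.998 ± 1.69 CPM per kb (SD, n = 9 each). Gas1, a membrane protein that binds hedgehog ligands, was at 15.0 ± 1.92 CPM per kb, and Pcolce, which enhances the cleavage of procollagen C-propeptides, at 11.7 ± 0.757 CPM per kb (SD, n = 9 each). The CAP-family gene Pi16 was at 6.70 ± 0.869 CPM per kb and the receptor gene Pdgfra at 5.59 ± 0.430 CPM per kb (SD, n = 9 each). The microfibril-associated gene Mfap5 had 3.71 ± 0.590 CPM per kb, and Tcf21, the transcription factor, was lowest at 3.10 ± 0.342 CPM per kb (SD, n = 9 each). The order is uncertain for 3 neighbouring pairs that had overlapping ranges over the 9 hearts: Gas1 with Pcolce, Pi16 with Pdgfra, and Mfap5 with Tcf21. Among the 9 hearts the coefficient of variation was smallest for Gsn at 5.62% and largest for Mfap5 at 15.9%.

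Gas1, Pi16 and Dpt are shown here by their upstream sequence, because Gas1 and Pi16 carry the genotype difference described later, while Dpt differed least of the 10 genes between outlier-noted and other hearts. The stretches end at the base before the annotated gene start, are given 5′ to 3′ on the gene's strand from RefSeq on GRCm38.p6, and have E-boxes (CANNTG, the motif class that TCF21 and other basic helix-loop-helix factors bind) in capitals. Gas1 lies on the minus strand with its stretch at chr13:60177536-60177785, Pi16 on the plus strand at chr17:29318632-29318795, and Dpt on the plus strand at chr1:164796413-164796662.
Gas1: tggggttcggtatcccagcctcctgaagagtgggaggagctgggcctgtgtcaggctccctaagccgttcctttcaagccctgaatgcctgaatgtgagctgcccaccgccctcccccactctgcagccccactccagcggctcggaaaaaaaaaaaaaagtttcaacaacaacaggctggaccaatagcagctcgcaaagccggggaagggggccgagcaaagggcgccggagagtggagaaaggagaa
Pi16: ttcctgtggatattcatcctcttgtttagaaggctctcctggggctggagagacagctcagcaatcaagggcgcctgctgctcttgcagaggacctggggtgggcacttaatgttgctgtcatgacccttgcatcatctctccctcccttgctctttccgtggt
Dpt: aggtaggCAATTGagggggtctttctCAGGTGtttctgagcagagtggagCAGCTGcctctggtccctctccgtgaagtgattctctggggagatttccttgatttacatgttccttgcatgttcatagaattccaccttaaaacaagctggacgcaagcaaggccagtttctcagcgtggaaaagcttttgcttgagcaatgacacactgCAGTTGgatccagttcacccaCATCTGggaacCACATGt
The Dpt stretch of 250 bases held 6 E-boxes, 1 of them of the form CAGCTG. The Gas1 stretch of 250 bases and the shorter Pi16 stretch of 164 bases held 0. The 250-base stretch of Tcf21, not shown, also held 0. Tcf21 had the smallest log2 fold change of the 10 genes between E3A/E3A and WT/WT without the noted hearts, at 0.07. Dpt was at 0.22 in the same comparison, so Dpt is not shown as a gene that genotype leaves unchanged. RefSeq start windows were found for 7 of the 10 genes, with 9 windows in all. Of these 9 windows of 250 bases, 6 held CANNTG, which was in 66.2% of 32851 such windows of all genes. CAGCTG was in 4 of the 9 windows and in 13% of all windows, GGGCGG in 5 of the 9 and in 32.7% of all, and TATAAA in 0 of the 9 and in 12.4% of all. Of the 9 windows, 3 belong to Gsn, which has 2 of the 4 windows with CAGCTG and 3 of the 5 with GGGCGG. Both strands were searched, CAGCTG is a form of CANNTG, and a match is only a description of the letters.

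The 10 genes did not differ in 1 direction in the outlier-noted hearts. Lum, Dcn and Mfap5 were lower there and Pi16, Gsn and Pcolce were higher, with no overlap between the 4 hearts and the other 9 for these 6 genes; over all genes tested, 53% did not overlap. No test was made, since the note may rest on these same counts. The log2 ratios are edgeR's with genotype in the model, and each 95% interval covers the spread between libraries.

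Lum had 20.3 and 22.5 CPM in the outlier-noted E3A/E3A hearts, 10.7 CPM in the WT/E3A heart and 9.87 CPM in the WT/WT heart. In the other hearts it had 56.7, 47.2 and 49.4 CPM in E3A/E3A, 45.0, 54.8 and 44.8 CPM in WT/E3A, and 48.0, 47.3 and 47.4 CPM in WT/WT. The 4 noted hearts all lay below the other 9, and the 2 of E3A/E3A lay above the 1 heart of each other genotype. The log2 ratio was -1.76 (95% interval -2.10 to -1.41), a ratio of 0.296. Dcn had 219 and 268 CPM in the noted E3A/E3A hearts, 146 CPM in the WT/E3A heart and 150 CPM in the WT/WT heart. In the other hearts Dcn had 466.1, 407 and 438 CPM in E3A/E3A, 390, 450 and 404 CPM in WT/E3A, and 432, 405 and 398 CPM in WT/WT. Among the noted hearts the 2 of E3A/E3A again lay above the 1 heart of each other genotype, and so nearer to the hearts without the note. With so few noted hearts per genotype, this order is a description only. The log2 ratio of Dcn in the noted to the other hearts was -1.19, a ratio of 0.439. The 2 genes are near neighbours on the plus strand of GRCm38, with Dcn at chr10:97479500-97518163 and Lum at chr10:97565501-97572703. Mfap5 (chr6:122513584-122529290) ranged from 6.46 to 10.4 CPM in the noted hearts and from 10.97 to 17.1 CPM in the others, at a log2 ratio of -0.77.

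Gsn had 2419 and 2185 CPM in the noted E3A/E3A hearts, 2911 CPM in the WT/E3A heart and 3043 CPM in the WT/WT heart. In the other hearts it had 1410, 1354 and 1409 CPM in E3A/E3A, 1240, 1310 and 1349 CPM in WT/E3A, and 1295, 1216 and 1229 CPM in WT/WT. The gene lies at chr2:35256359-35307902. All 4 noted hearts lay above the other 9, with a log2 ratio of 1.01 and a ratio of 2.02, and here the E3A/E3A hearts were the lower of the 4. Pi16 showed the same arrangement at a log2 ratio of 1.04 and a ratio of 2.06. Pcolce ranged from 54.8 to 63.6 CPM in the noted hearts and from 40.3 to 50.0 CPM in the others, a ratio of 1.34. Tcf21 and Gas1 were 1.19 and 1.18 times as high on average and overlapped with the other hearts, and Pdgfra (ratio 0.888) and Dpt (ratio 0.91) overlapped as well. For Gas1 that average joined opposite directions. The noted E3A/E3A hearts had 38.2 and 38.2 CPM, below the other E3A/E3A hearts at 48.7 to 50.7 CPM. The noted WT/E3A heart had 73.3 CPM and the noted WT/WT heart had 60.3 CPM, both above the other hearts of their genotype. Past a fold of 1.5, 2 of the 10 genes were higher and 3 were lower, where 43.9% of all genes tested passed that fold. The median log2 ratio of the 10 genes was 0.05, against -0.02 over all genes tested. In the same 4 hearts the cardiomyocyte marker sum was higher, as given above, but most of it was Myh6 and the list did not move together: of its 8 genes, 3 were higher and 1 was lower past a fold of 1.5, with a median log2 ratio of 0.08. The sum of the 7 macrophage markers used was 253 to 293 CPM in the noted hearts, against 179 to 226 CPM in the other 9, while 2 of the 7 were higher and 2 lower past that fold, with a median log2 ratio of -0.09. The part of other cell types in these ratios was not tested.

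**Figure D1:**
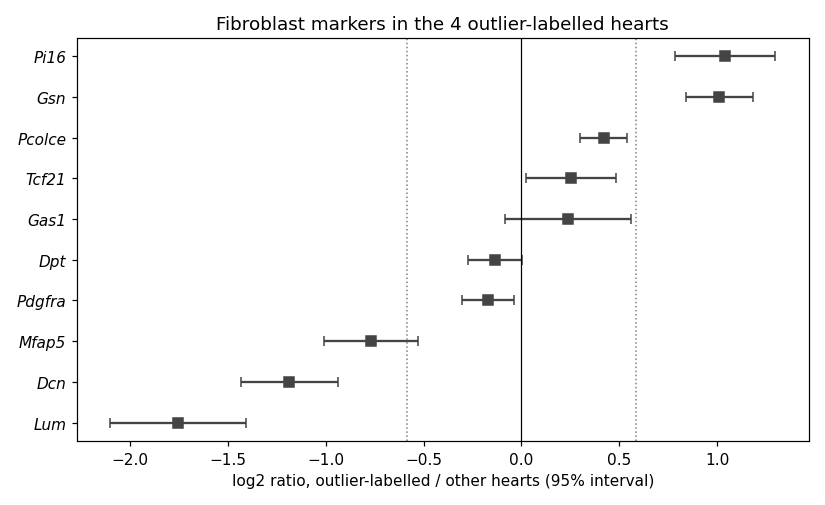
Log2 ratio of the 4 outlier-noted hearts to the other 9 hearts for each fibroblast gene (x axis), with the 95% interval as a bar and dotted lines at a fold of 1.5. Pi16 and Gsn lie past 1.5-fold on the higher side and Mfap5, Dcn and Lum on the lower side, while the other genes lie between the dotted lines. The intervals are a description, and no test was made.

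The small leucine-rich proteoglycans, the family of Dcn and Lum, were mostly lower in the same hearts, described without a test. Of the other family genes, 8 were tested, 6 were lower past a fold of 1.5 and 1 was higher, with a median log2 ratio of -1.06. Over all 14387 genes tested, 3389 were lower and 2924 higher past that fold. Osteoglycin (Ogn) averaged 22.9 CPM in the noted hearts and 119 CPM in the others, a log2 ratio of -2.62. Asporin (Aspn) averaged 5.42 CPM in the noted hearts and 22.2 CPM in the others, a log2 ratio of -2.24. Biglycan (Bgn), the closest relative of decorin, averaged 95.6 CPM in the noted hearts and 202 CPM in the others, a log2 ratio of -1.15. Podn was higher past that fold, at a log2 ratio of 0.77, and Fmod was lower without passing it at -0.34.

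**Figure D2:**
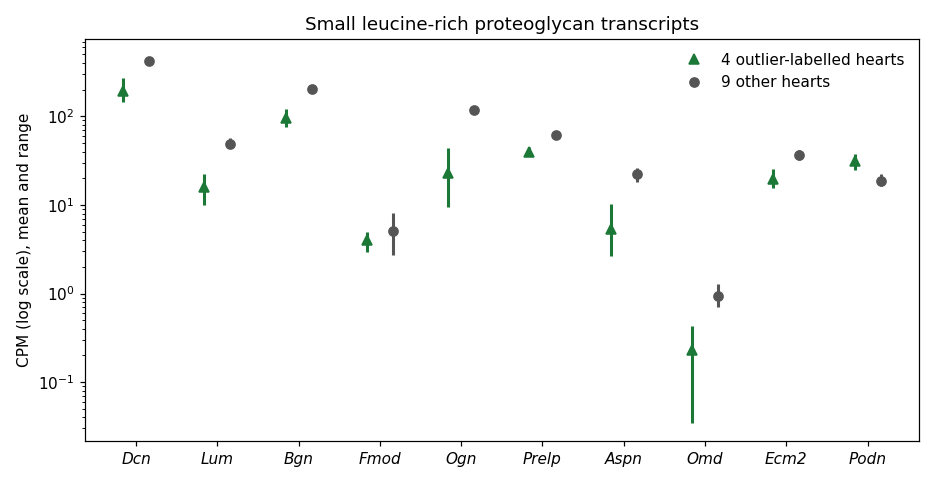
Mean CPM (log axis) of each small leucine-rich proteoglycan, Dcn and Lum included, in the 4 outlier-noted hearts (left) and the other 9 hearts (right), with bars from the lowest to the highest heart. Ogn stands at 22.9 CPM in the noted hearts against 119 CPM in the others, and Podn is higher in the noted hearts.

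The question the genotypes pose is whether a CPT1B less sensitive to malonyl-CoA changes the heart's transcripts, here those of genes that mark fibroblasts. Bulk RNA does not show which cells the transcripts came from. Without the 4 noted hearts, Pi16 and Gas1 were higher in E3A/E3A than in WT/WT hearts, and the other 8 genes had fold changes above 0 of smaller size or larger error. Pi16 and Gas1 were selected on this comparison, which was known when the list was drawn up, so its values are a description and support nothing further. For that reason no gene's own p is given for the 10 genes in it.

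Pi16 (chr17:29318796-29328903) had 50.0, 43.8 and 48.9 CPM in the E3A/E3A hearts, against 38.2, 34.3 and 36.3 CPM in the WT/WT hearts. Its WT/E3A hearts had 43.5, 42.1 and 47.0 CPM. Both mutant genotypes lay wholly above WT/WT. The E3A/E3A to WT/WT log2 fold change was 0.39 (SE 0.07, 95% interval 0.25 to 0.53). Gas1 (chr13:60174405-60177535) had 50.4, 48.7 and 50.7 CPM in the E3A/E3A hearts, against 38.0, 39.2 and 38.4 CPM in the WT/WT hearts. In WT/E3A it had 40.4, 51.1 and 43.8 CPM, so that 1 heterozygous heart reached the E3A/E3A level and another lay near the WT/WT hearts. The E3A/E3A to WT/WT log2 fold change of Gas1 was 0.37 (SE 0.07, 95% interval 0.22 to 0.53). GENCODE lists an antisense gene over each of these 2 genes, Gm48488 at Gas1 and AC162182.1 at Pi16, and since strand use in the counting is not given, reads of both strands cannot be told apart. The same holds for Pdgfra, which overlaps the antisense genes Gm42802 and Gm42803, and for Pcolce, which overlaps Fbxo24 on its own strand and Gm36266 on the other.

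Of 14373 genes tested, 39 (0.271%) passed an edgeR adjusted p of 0.05, with Pi16 and Gas1 among them and none of the other 8; the choice of these 2 genes used that outcome, so nothing is read from the count. The log2 fold changes of the other 8 were 0.33 for Mfap5, 0.22 for Dpt, 0.18 for Pcolce, 0.16 for Gsn, 0.10 for Lum, 0.09 for Dcn, 0.08 for Pdgfra and 0.07 for Tcf21. Gsn averaged 1391 ± 31.9 CPM in E3A/E3A and 1247 ± 42.2 CPM in WT/WT, and Pcolce averaged 47.5 ± 2.24 CPM in E3A/E3A and 41.9 ± 1.37 CPM in WT/WT (SD, n = 3 each). For 4 of the 10 genes (Gsn, Pcolce, Pi16 and Gas1) every E3A/E3A heart lay above every WT/WT heart, as was so for 7.19% of all genes. The median log2 fold change of the 10 was 0.17, against 0.00 over all genes tested. Beside these, the summed level of 6 valve markers was 28.5 to 34.1 CPM in E3A/E3A and 20.6 to 27.9 CPM in WT/WT, and that of the 6 epicardial and mesothelial markers used 7.77 to 15.6 CPM in E3A/E3A and 5.77 to 7.55 CPM in WT/WT. Cldn7 and Col2a1 of the valve list, Upk1b of the epicardial list, and Adipoq, Lep, Retn and Adrb3 of the white adipocyte list were at 0 in at least 1 of the 13 hearts. At least 5 of the 6 valve markers and all 6 epicardial markers used had reads in each of the 9 hearts. Cardiomyocyte marker sums were 87173 to 87440 CPM in E3A/E3A and 81817 to 86755 CPM in WT/WT, and white adipocyte sums (at least 5 of 7 markers with reads) were 2.64 to 4.48 CPM in E3A/E3A and 2.01 to 2.59 CPM in WT/WT. Smooth muscle and pericyte sums were 1174 to 1231 CPM in E3A/E3A and 1237 to 1271 CPM in WT/WT, although 5 of those 8 genes had a log2 fold change above 0, with a median of 0.13. Sums of endothelial, macrophage and nerve markers overlapped between the 2 genotypes. Gene by gene, the log2 fold changes above 0 were 4 of 4 valve genes tested (median 0.52), 5 of 5 epicardial genes tested (median 1.03), 7 of 7 macrophage genes (median 0.16), 5 of 5 nerve genes tested (median 0.18) and 6 of 8 cardiomyocyte genes (median 0.03). They were also 3 of 4 white adipocyte genes tested (median 0.51) and 5 of 8 endothelial genes (median 0.07). Over all genes tested 50.6% were above 0, and none of these marker genes passed the test. With all 13 libraries, 0 of 4 white adipocyte genes tested were above 0 (median -0.50), where 43.7% of all genes were. Medians with 13 libraries were 0.39 for valve, 0.74 for epicardial and 0.15 for macrophage genes. They were 0.11 for nerve, 0.03 for cardiomyocyte and 0.04 for endothelial genes. The part of other cell types in the differences was not tested.

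Outside the noted hearts, C3 was the only prefix that both genotypes shared, with 2 E3A/E3A hearts and 1 WT/WT heart. For Pi16 and Gas1 every E3A/E3A heart lay above every WT/WT heart, so the direction within C3 could only be the same. The C3 values are therefore a description of the same hearts and no separate support. There Pi16 averaged 49.5 CPM in E3A/E3A and had 38.2 CPM in WT/WT (log2 ratio 0.37), and Gas1 averaged 50.6 CPM in E3A/E3A and had 38.0 CPM in WT/WT (log2 ratio 0.41). With prefix as a term in the fit the log2 fold changes were 0.34 for Pi16 and 0.36 for Gas1, and neither passed the threshold. Since C6 holds only WT/WT hearts, that fit leaves the 1 WT/WT heart of C3 to set against E3A/E3A. Among the outlier-noted hearts of prefix C2 the direction was the other way. Pi16 averaged 71.3 CPM in the 2 E3A/E3A hearts and had 92.7 CPM in the WT/WT heart (log2 ratio -0.38), and Gas1 averaged 38.2 CPM in the 2 E3A/E3A hearts and had 60.3 CPM in the WT/WT heart (log2 ratio -0.66). When 1 heart was left out, 0 to 2 of the 10 genes passed. Pi16 no longer passed without E3A/E3A replicate 3 or 5 or WT/WT replicate 3 or 4, at log2 fold changes of 0.35, 0.37, 0.35 and 0.39. Gas1 no longer passed on leaving out any E3A/E3A heart, any WT/WT heart or the fourth WT/E3A heart, at log2 fold changes of 0.36 to 0.39.

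**Figure D3:**
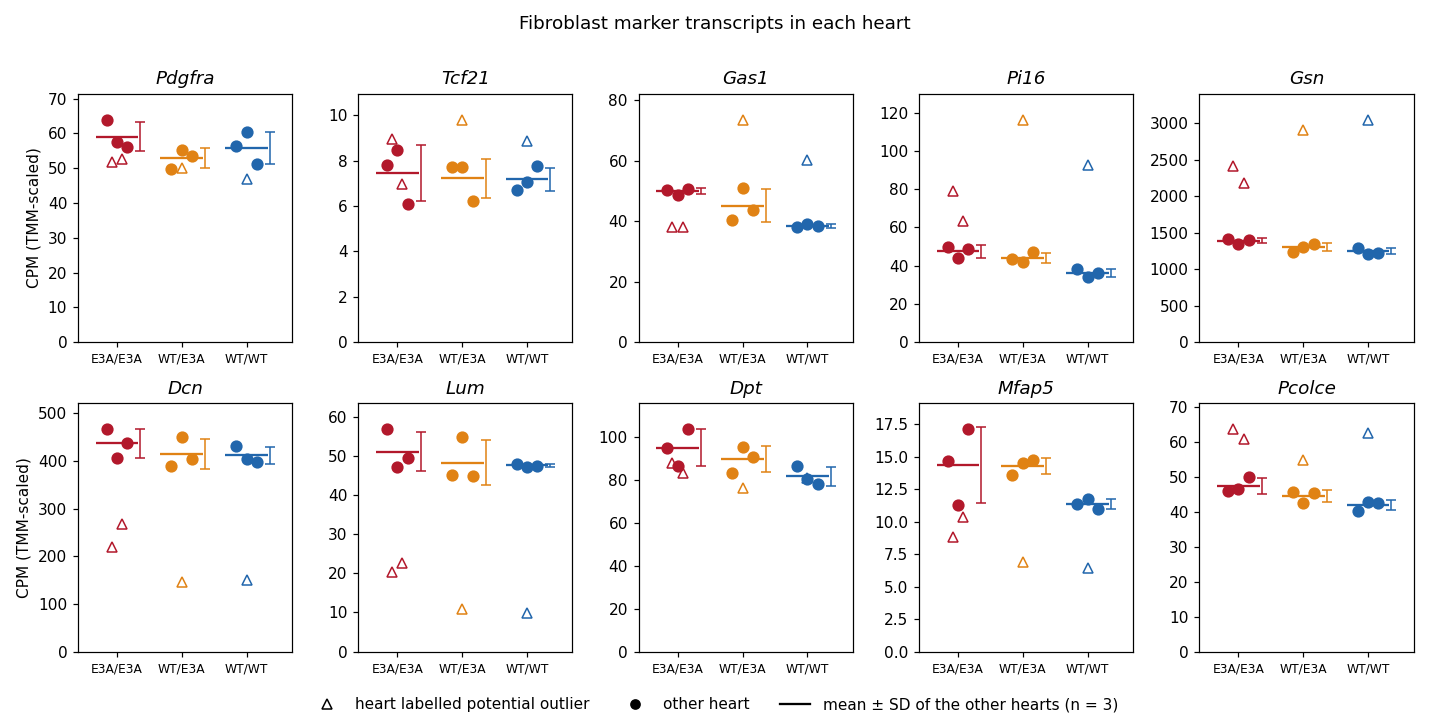
CPM of each fibroblast gene in each of the 13 hearts by genotype (E3A/E3A, WT/E3A, WT/WT from left to right). Open triangles are the 4 outlier-noted hearts, filled circles the other 9, and the line with its bar is the mean ± SD of the 3 filled circles; the E3A/E3A circles of Pi16 and Gas1 all lie above the WT/WT circles.

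With all 13 libraries, 0 of the 10 genes passed the edgeR test between E3A/E3A and WT/WT, where 1 gene of the 14387 tested did (0.00695%), and 0 of the 10 had an unadjusted p under 0.05, where 173 of the 14387 had one. Each of the 10 log2 fold changes was above 0, with a median of 0.06 against -0.02 over all genes. With prefix as a term in the fit, those of Gsn, Gas1, Pi16 and Tcf21 were below 0. The intervals were wide, from -0.64 to 1.002 for Pi16 and from -1.10 to 1.18 for Lum, and the 2 groups overlapped for all 10 genes, where 0.862% of all genes showed no overlap in either direction.

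**Figure D4:**
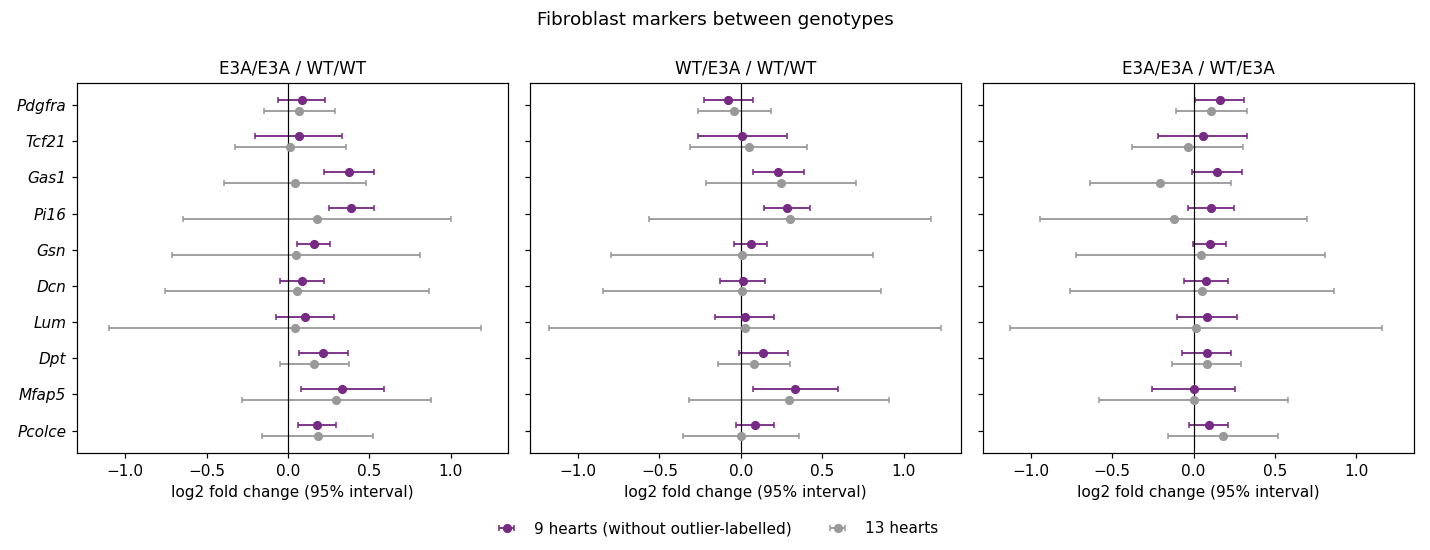
Log2 fold change of each fibroblast gene with its 95% interval in the 3 genotype comparisons, from the 9 hearts without the outlier note (purple) and from all 13 hearts (grey). For E3A/E3A against WT/WT, the 9-heart intervals of Pi16 (0.25 to 0.53) and Gas1 (0.22 to 0.53) lie above 0. Those of Gsn, Dpt, Pcolce and Mfap5 do so as well. The 13-heart intervals all span 0.

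Between WT/E3A and WT/WT hearts without the noted libraries, 0 of the 10 genes passed the edgeR test, where 0.0209% of all genes tested did. An unadjusted p under 0.05 was found for 3 of the 10 and for 914 of the 14373 genes tested. Pi16 averaged 44.2 ± 2.54 CPM in WT/E3A and 36.3 ± 1.93 CPM in WT/WT (SD, n = 3 each), a log2 fold change of 0.28 with an edgeR adjusted p of 0.539. Mfap5 averaged 14.3 ± 0.634 CPM in WT/E3A and 11.3 ± 0.379 CPM in WT/WT (SD, n = 3 each), a log2 fold change of 0.33 with an edgeR adjusted p of 0.704. Gas1 averaged 45.1 ± 5.47 CPM in WT/E3A and 38.5 ± 0.627 CPM in WT/WT (SD, n = 3 each), a log2 fold change of 0.23 with an edgeR adjusted p of 0.667. For these 3 genes every WT/E3A heart lay above every WT/WT heart, as was so for 6.44% of all genes. Of the receptor gene Pdgfra the log2 fold change was -0.08, the only 1 of the 10 below 0, and the median was 0.07. With all 13 libraries 0 of the 10 passed (0% of all genes), the groups overlapped for all 10 (1.14% of all genes did not), and the median was 0.04.

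E3A/E3A and WT/E3A hearts, compared without the noted libraries, likewise gave 0 of 10 genes past the edgeR test, where 0.0417% of all genes tested passed. Pdgfra averaged 59.1 ± 4.11 CPM in E3A/E3A and 52.9 ± 2.75 CPM in WT/E3A (SD, n = 3 each), a log2 fold change of 0.16 with an unadjusted p of 0.0371 and an edgeR adjusted p of 0.717. It was the only 1 of the 10 with an unadjusted p under 0.05, where 993 of the 14373 genes tested had one. The log2 fold change was 0.14 for Gas1 and 0.11 for Pi16. Every E3A/E3A heart lay above every WT/E3A heart for Pdgfra, Gsn and Pcolce, as was so for 5.68% of all genes. The median was 0.09, and with all 13 libraries it was 0.03 with 0 of 10 genes past the test (0% of all genes); the groups overlapped for all 10, where 0.994% of all genes did not. These comparisons share hearts with the one between E3A/E3A and WT/WT, so their values are not independent of it.

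In the families around these genes, 0 genes passed the test in any of the 3 comparisons with either set of libraries. The values that follow are log2 fold changes of E3A/E3A to WT/WT over the 9 hearts, with all lists written when earlier results were known. Of 24 other fibroblast genes 23 were above 0 (median 0.15), and of 14 fibroblast activation genes 13 (median 0.20). Of 12 genes listed as microfibril and elastic fibre genes, with Mfap1a among them by its name, 10 were above 0 (median 0.17). The median of all genes was 0.00. With all 13 libraries the medians of these lists were smaller, at 0.10, 0.09 and 0.09 in the same order, against -0.02 over all genes. Medians of the small leucine-rich proteoglycans and of 4 procollagen C-proteinase genes, the enzymes that Pcolce enhances and its relative Pcolce2, were 0.11 and 0.12. The PDGF ligands and receptor Pdgfrb had a median of 0.05 and the hedgehog pathway, to which Gas1 belongs, had 0.04 over 10 genes. Pdgfb, a PDGF ligand, averaged 86.5 CPM in E3A/E3A and 67.4 CPM in WT/WT, a log2 fold change of 0.36 with an edgeR adjusted p of 0.0937. Sparc, a collagen-binding matrix protein, and Fbn1, the main microfibril protein, had log2 fold changes of 0.24 and 0.23 with edgeR adjusted p of 0.15 and 0.16. Fn1 (fibronectin) was at 0.27 with an edgeR adjusted p of 0.211, and the myofibroblast gene Acta2, which smooth muscle also expresses, at 0.35 with an edgeR adjusted p of 0.594. Postn (periostin), a gene of activated fibroblasts, was at 0.27 with an edgeR adjusted p of 0.783.

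Across the 9 hearts, 0 of the 9 correlations of Pdgfra with the other genes passed the adjusted threshold. The closest was Dcn, with a Pearson r of 0.66 (exact permutation p 0.0556, adjusted over 9 relations 0.349) and a Spearman rho of 0.667 (exact permutation p 0.0589, adjusted 0.530). Without the 2 hearts farthest from the median of Pdgfra, r was 0.19 over 7 hearts, where the range of Pdgfra is narrower by construction. With genotype means subtracted, r was 0.62 over 9 hearts and 0.43 over 7. Lum followed with r of 0.61 (exact permutation p 0.0776, adjusted 0.349), and Tcf21 had r of 0.06. As a description, the Pearson r of each gene with the mean of the other 9 over the same 9 hearts was highest for Gas1 at 0.91, Gsn at 0.86 and Dpt at 0.85. It was 0.77 for Pi16, 0.74 for Dcn, 0.66 for Lum, 0.65 for Mfap5, 0.50 for Pcolce, 0.44 for Pdgfra and -0.15 for Tcf21. These hearts differ in genotype and share depth scaling, which enter such values.

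Of 12617 other genes, the 10 whose log2 level over the 9 hearts was most like the mean of the fibroblast genes were 2010111I01Rik, Csrp2, Pdlim2, Megf10, Ncam1, Matn2, Opcml, Srrm1, Neto2 and Plat. Their Pearson r with that mean lay between 0.91 and 0.95 over 9 hearts, as a description with no test. Matn2 encodes a matrilin of the extracellular matrix, Ncam1 a cell adhesion molecule and Plat the tissue plasminogen activator.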

How the data were processed

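Poly(A) RNA of 13 hearts was read as single-end reads, per the labels' protocols. The authors deposited raw counts of reads, with 1 table of gene symbols for each heart; per the submitters' processing notes, STAR 2.4.0 and featureCounts 1.4.4 were used, with builds mm10 and GRCm38. The annotation and the strand and multimapping settings are not given in the sources used here. Groups came from the genotype labels.

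Genes were tested with the quasi-likelihood F test of edgeR 4.0.16 under R 4.3.3, with all 3 genotypes in 1 robust fit after filterByExpr and TMM scaling, Benjamini-Hochberg adjustment over 14387 genes (13 libraries) or 14373 genes (9 libraries) and a threshold of 0.05. The procedure was tested on simulated data. DESeq2 1.42.0, RLE size factors, no count filter (at least 1 read), prefix as a block, the outlier note as a covariate and leaving out each heart were alternatives. Standard errors are the log2 fold change over the root of F. Exon lengths and overlapping genes came from GENCODE and upstream sequences from RefSeq; protein sequences were not used here.

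The members and gene lists were chosen with earlier results of these data known. All 10 members are named. Of the related lists, genes past the test were to be named, and as none passed, the genes named were chosen after their values were seen. Look-alikes are the 10 genes of at least 1 CPM with the highest Pearson r.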

Additional observations from a re-analysis of the deposited data

Results flagged for a closer look

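In 10 of the 30 sets formed by 1 gene in 1 genotype, a single heart lay far from the rest by Dixon's criterion. Chance meets this criterion in about 1 of 20 independent sets. The sets of a genotype share the same hearts, so the count of 10 cannot be set against that rate. In each case the heart was WT/WT replicate 1 or WT/E3A replicate 1, both with the outlier note. In WT/WT replicate 1, Dcn had 150 CPM (398 to 432 CPM in the other WT/WT hearts) and Lum had 9.87 CPM (47.3 to 48.0 CPM in the others). The same heart had 6.46 CPM of Mfap5 (10.97 to 11.7 CPM in the others). It was high for Gsn at 3043 CPM (1216 to 1295 CPM in the others) and for Pi16 at 92.7 CPM (34.3 to 38.2 CPM in the others). Pcolce at 62.5 CPM (40.3 to 42.8 CPM in the others) and Gas1 at 60.3 CPM (38.0 to 39.2 CPM in the others) were high there as well.

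In WT/E3A replicate 1, Gsn had 2911 CPM (1240 to 1349 CPM in the other WT/E3A hearts) and Pi16 had 116 CPM (42.1 to 47.0 CPM in the others). Mfap5 had 6.92 CPM there (13.6 to 14.8 CPM in the others). No set of the E3A/E3A hearts met the criterion, and 2 of those 5 hearts carry the note, which leaves no single heart apart.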

How the results depend on the processing

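The count of fibroblast genes past the threshold between E3A/E3A and WT/WT over 9 hearts was 2 in the reported fit. It stayed 2 with RLE size factors, without the filter on low counts and with DESeq2, which named 38, 54 and 98 genes in all. It was 0 with prefix as a block, where 10 genes passed in all, and 0 to 2 when 1 heart was left out. In the prefix fit the WT/WT side rests on the 1 heart of C3, because C6 holds no other genotype. The cause of the changed counts was not tested. The other 5 genotype counts were 0 under every alternative run. The correlation count of 0 and the count of 5 genes past 1.5-fold in outlier-noted hearts were also unchanged. For the correlation with Pdgfra, subtracting genotype means turned r to -0.018 for Tcf21 and -0.49 for Pcolce.

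With prefix as a block, the log2 fold changes that changed sign were -0.026 for Tcf21, -0.19 for Gsn, -0.070 for Pi16 and -0.18 for Gas1 (E3A/E3A to WT/WT, 13 hearts); -0.0064 for Gsn and -0.15 for Gas1 (WT/E3A to WT/WT, 13 hearts); -0.18 for Gsn and -0.0031 for Pcolce (E3A/E3A to WT/E3A, 13 hearts); -0.055 for Dcn and -0.012 for Gsn (WT/E3A to WT/WT, 9 hearts). With the outlier note as a covariate, the log2 fold changes that changed sign were -0.012 for Tcf21 and -0.024 for Gsn (E3A/E3A to WT/WT, 13 hearts); -0.049 for Gsn (E3A/E3A to WT/E3A, 13 hearts). Without the filter on low counts, the log2 fold changes that changed sign were -0.0042 for Gsn and -0.0059 for Pcolce (WT/E3A to WT/WT, 13 hearts); 0.00080 for Mfap5 (E3A/E3A to WT/E3A, 9 hearts). With RLE size factors, the log2 fold changes that changed sign were -0.0086 for Mfap5 (E3A/E3A to WT/E3A, 13 hearts). With DESeq2, the log2 fold changes that changed sign were -0.0087 for Mfap5 (E3A/E3A to WT/E3A, 13 hearts).

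Leaving out 1 heart changed the sign of some log2 fold changes. In E3A/E3A to WT/WT with 13 hearts the ranges were -0.049 to 0.10 for Tcf21, -0.094 to 0.49 for Gsn, -0.19 to 0.19 for Dcn, -0.28 to 0.21 for Lum and -0.023 to 0.23 for Gas1. In WT/E3A to WT/WT with 13 hearts the ranges were -0.24 to 0.26 for Dcn, -0.29 to 0.34 for Lum, -0.074 to 0.15 for Tcf21, -0.38 to 0.45 for Gsn, -0.080 to 0.17 for Pcolce, -0.19 to 0.78 for Pi16 and -0.10 to 0.021 for Pdgfra. In E3A/E3A to WT/E3A with 13 hearts the ranges were -0.10 to 0.43 for Gsn, -0.20 to 0.20 for Dcn, -0.30 to 0.23 for Lum, -0.20 to 0.10 for Mfap5, -0.13 to 0.089 for Tcf21, -0.27 to 0.37 for Pi16 and -0.31 to 0.0056 for Gas1. In E3A/E3A to WT/WT with 9 hearts the ranges were -0.032 to 0.18 for Tcf21. In WT/E3A to WT/WT with 9 hearts the ranges were -0.047 to 0.10 for Tcf21, -0.056 to 0.054 for Dcn and -0.086 to 0.075 for Lum. In E3A/E3A to WT/E3A with 9 hearts the ranges were -0.0018 to 0.19 for Lum, -0.043 to 0.17 for Tcf21 and -0.14 to 0.15 for Mfap5. The median over the 10 genes in E3A/E3A to WT/E3A with 13 hearts ran from -0.052 to 0.11 and so changed sign, while the other 5 genotype medians stayed above 0. The causes were not tested.

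With 3 hearts per genotype outside the noted libraries, differences under about the size of the intervals given could not be seen. Counts without molecular identifiers are not independent molecules, so intervals cover the spread between libraries and counting error only. The least-read gene, Tcf21, had 151 reads in its shallowest heart.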

Other observations

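The families related to the fibroblast genes are described here in the 4 outlier-noted hearts without a test. Over all 14387 genes tested, 43.9% lay past a fold of 1.5 (2924 higher and 3389 lower), so counts near that share are not particular to a family. Of 12 microfibril and elastic fibre genes, 4 were higher and 3 lower past a fold of 1.5. Elastin (Eln) averaged 278 CPM in the noted hearts and 86.4 CPM in the others, a log2 ratio of 1.68, and Emilin1 averaged 102 CPM in the noted hearts and 39.5 CPM in the others, a log2 ratio of 1.37. Efemp1 averaged 4.46 CPM in the noted hearts and 7.93 CPM in the others, a log2 ratio of -0.90. The 3 lower genes also include Mfap1a, at 6.77 CPM in the noted hearts and 15.5 CPM in the others. Mfap1a was listed by its name and is not taken here as a microfibril gene. Of 6 CAP-family genes, relatives of Pi16, 0 were higher and 4 lower past that fold, with Pi15 at 1.75 CPM in the noted hearts and 6.52 CPM in the others.

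Among 14 fibroblast activation genes, 5 were higher and 4 lower past that fold. Periostin (Postn) averaged 20.4 CPM in the noted hearts and 36.3 CPM in the others, and the collagen cross-linking enzyme Lox averaged 2.86 CPM in the noted hearts and 6.06 CPM in the others. Wisp2, a matricellular gene, averaged 16.8 CPM in the noted hearts and 7.41 CPM in the others. The matrix Gla protein Mgp, among the other fibroblast genes, averaged 28.6 CPM in the noted hearts and 79.9 CPM in the others, a log2 ratio of -1.68. The PDGF ligand Pdgfa, which signals through the receptor encoded by Pdgfra, averaged 32.3 CPM in the noted hearts and 13.8 CPM in the others, a log2 ratio of 1.25, while Pdgfra itself had a ratio of 0.888.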
